A study of Mus musculus with 9 samples.

Results

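The Krüppel-like factors (Klf) are transcription factors with a run of C2H2 zinc fingers at the carboxyl end, which bind GC-rich and CACCC sequences in promoters and enhancers. Their amino-terminal parts differ, and members are grouped by the partners that these parts bind: acetyltransferase-associated activators (here Klf2, Klf4, Klf5, Klf6 and Klf7), a CtBP-binding repressor (Klf3) and Sin3-binding factors (Klf9, Klf10, Klf13 and Klf16). In mouse ESCs, Klf2, Klf4 and Klf5 belong to the network of naive pluripotency and can in part stand in for one another, and Klf4 is induced by LIF through Stat3.

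The 10 Klf genes named above were taken by symbol from a table of 44788 genes, in all 9 libraries. The libraries came from undifferentiated mouse J1 ESCs, 3 each from control cells labelled wild type, Foxj3-ES and Zbtb18-ES. Foxj3-ES and Zbtb18-ES were stable lines made with a lentivirus that carried Foxj3 or Zbtb18 together with puromycin resistance. The controls are not said to carry the vector, so effects of the vector and of the gene it carried cannot be told apart. All groups were grown without feeder cells, in medium with LIF and serum replacement. The study made the lines to ask how both genes, targets of miR-219, act in the neural differentiation of ESCs. The labels do not say whether separate cultures gave the 3 libraries of a group, so each p-value reflects the spread among these samples alone. Neither Foxj3 (log2 fold change 0.26, adjusted p = 0.388 from limma) nor Zbtb18 (0.26, adjusted p = 0.715) passed the test for a rise of its transcript in its own line. The libraries of Zbtb18-ES differed widely in Zbtb18, at 34.9, 129 and 57.0, beside 46.4, 65.4 and 49.0 in the controls (upper-quartile RPKM, UQRPKM).

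The promoters of 7 of the 10 members were in the RefSeq table used here (GRCm38.p6), each from 250 bases before to 50 bases after the start. They were searched for CACCC, and after these matches had been seen a second search was made for the GC box, GGGCGG. Both strands were read, so the reverse complement of each motif counts as a match. Matches of either motif may overlap each other. Of 32851 promoters of the same length, 57.5% held CACCC and 35.7% held GGGCGG. The promoters of 4 members are shown because these genes include both that fell most (Klf4 and Klf13), the one that rose (Klf6) and the one with the most matches (Klf3). Capitals mark the matches, and each runs 5′ to 3′ on the strand of its gene. Klf4 lies at chr4:55532426-55532725 (minus strand), Klf13 at chr7:63938866-63939165 (minus), Klf6 at chr13:5861239-5861538 (plus) and Klf3 at chr5:64803271-64803570 (plus).
Klf4: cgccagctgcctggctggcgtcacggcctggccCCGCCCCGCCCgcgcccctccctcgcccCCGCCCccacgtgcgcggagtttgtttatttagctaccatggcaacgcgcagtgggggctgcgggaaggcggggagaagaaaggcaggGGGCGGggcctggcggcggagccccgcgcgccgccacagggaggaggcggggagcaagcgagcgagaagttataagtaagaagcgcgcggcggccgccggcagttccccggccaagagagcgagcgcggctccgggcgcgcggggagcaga
Klf13: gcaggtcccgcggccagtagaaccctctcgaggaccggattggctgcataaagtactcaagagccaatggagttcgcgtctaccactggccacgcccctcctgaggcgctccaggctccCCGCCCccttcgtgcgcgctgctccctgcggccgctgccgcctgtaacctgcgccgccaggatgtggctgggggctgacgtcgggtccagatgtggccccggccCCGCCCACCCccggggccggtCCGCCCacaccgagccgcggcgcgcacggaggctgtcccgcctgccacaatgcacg
Klf6: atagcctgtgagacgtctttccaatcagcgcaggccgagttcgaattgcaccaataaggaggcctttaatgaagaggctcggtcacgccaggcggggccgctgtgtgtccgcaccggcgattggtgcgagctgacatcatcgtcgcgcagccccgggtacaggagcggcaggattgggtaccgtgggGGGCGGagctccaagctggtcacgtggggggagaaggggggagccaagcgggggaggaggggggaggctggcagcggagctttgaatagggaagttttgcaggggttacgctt
Klf3: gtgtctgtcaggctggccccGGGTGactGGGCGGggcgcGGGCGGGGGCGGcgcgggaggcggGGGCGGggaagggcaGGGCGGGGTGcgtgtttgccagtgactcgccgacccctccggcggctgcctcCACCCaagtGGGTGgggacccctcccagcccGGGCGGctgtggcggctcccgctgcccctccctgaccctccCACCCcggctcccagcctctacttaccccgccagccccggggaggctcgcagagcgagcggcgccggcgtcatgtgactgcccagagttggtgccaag
The Klf3 promoter held 5 matches to CACCC, a number reached by 1.02% of all promoters, and 6 to GGGCGG, reached by 1.35%. The Klf4 promoter held none to CACCC and 4 to GGGCGG, the latter reached by 5.49% of promoters. Klf13 had 1 and 3 matches, and Klf6 had none and 1. Among the members not shown, Klf2 had 1 match to CACCC and 2 to GGGCGG, Klf7 had 3 and 1, and Klf9 had 1 and none. The 4 promoters thus differed in these letters, and the matches are a description of the sequence only. Both motifs are rich in G and C. The GC content was 76.7% in the Klf3 promoter and 74.3% in that of Klf4, beside a median of 52.7% over all promoters. The percentages of promoters were not matched for GC content. Klf5, Klf10 and Klf16 were not matched.

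Klf4 and Klf13 fell 3-fold or more in both lines, and the other members changed less or did not pass the test. In Foxj3-ES 5 of the 10 members passed at an adjusted p under 0.05 (limma), with Klf4, Klf13, Klf3 and Klf10 lower and Klf6 higher. Among all 22268 genes tested, 14.6% passed in that comparison, 7.01% lower and 7.54% higher. In Zbtb18-ES 5 of the 10 members fell (Klf4, Klf13, Klf16, Klf9 and Klf10), against 11.8% of the tested genes that passed in either direction, 6.5% lower and 5.31% higher. With a 2-fold limit added, Klf4 and Klf13 remained in each line (2 of 10), where 7.31% and 6.04% of tested genes passed. The members, and the lists below, were chosen with earlier results of these data known. Counts above these shares are therefore no test of the family, and the shares cover tested genes of every level and type. All 10 members passed the filter on low values, which asked for a UQRPKM of 1 or more in 3 or more libraries. UQRPKM is the number of reads per length of the gene, scaled by the upper quartile of the library, and fold changes were taken on log2(UQRPKM + 1). The median log2 fold change of the 10 members was -0.51 in Foxj3-ES cells and -0.56 in Zbtb18-ES cells, beside -0.03 and -0.02 over all genes tested and -0.10 in each line over those typed as mRNA. The 3 libraries of a line lay wholly below the controls for 5 members and wholly above for 1 in Foxj3-ES, where 18.5% and 16.7% of all tested genes did so. In Zbtb18-ES they lay wholly below for 7 members, where 20% of tested genes did so and 14.8% lay wholly above. Both comparisons share the control libraries, so their likeness is not independent evidence.

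**Figure D1:**
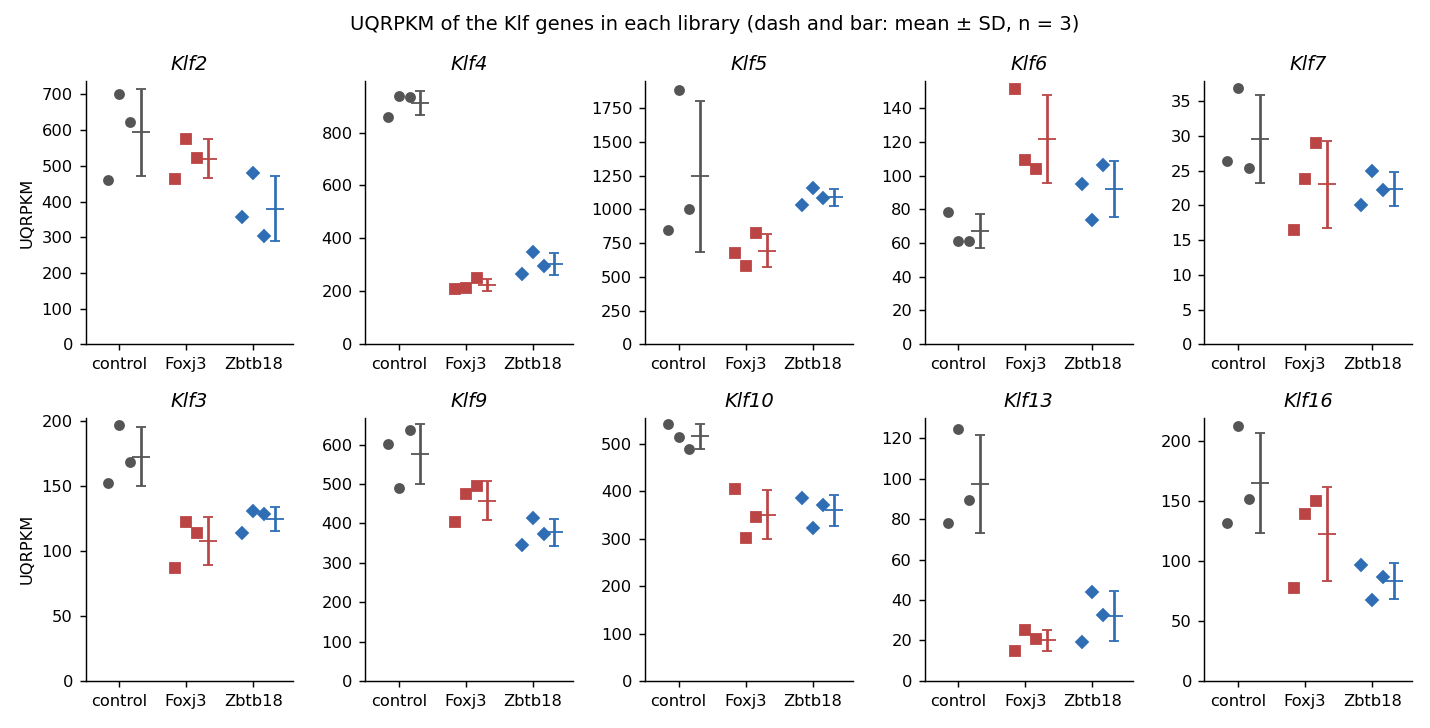
UQRPKM (linear axis from 0) of each Klf gene in each library, with control, Foxj3-ES and Zbtb18-ES side by side, and the mean ± SD of 3 libraries to the right of the points. The Klf4 and Klf13 libraries of both lines lie below every control library, those of Klf6 in Foxj3-ES lie above, and 1 control library of Klf5 stands far above the others at 1888.

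By the reads estimated from the values, the libraries held 14730000 to 20660000 reads in genes of known length. The members rested on 84 (Klf13 in Foxj3-ES replicate 1) to 10036 (Klf5 in control replicate 2) of these. Control replicate 2 stood apart: its genes of the top GC decile exceeded those of the bottom decile by 0.97 (log2). This difference was 0.04 and 0.09 in the other controls and -0.31, -0.03 and 0.19 in Foxj3-ES. In Zbtb18-ES it was -0.35, -0.13 and -0.49, below all controls, so a shift with GC content went along with that line. The 10 ESC markers summed to a UQRPKM of 40935 to 43979 in the controls, 44595 to 48094 in Foxj3-ES cells and 49203 to 65120 in Zbtb18-ES cells. The sum hides opposite moves. Of these markers 3 fell and 0 rose in Foxj3-ES (Nanog, Esrrb and Sox2), while in Zbtb18-ES 2 fell (Nanog and Utf1) and 1 rose, Dppa5a, from 5158 to 12482 in the controls to 16318 to 29527 (log2 fold change 1.34, adjusted p = 0.0382 from limma). The median log2 fold change of the 10 ESC markers was -0.26 and -0.25. Over all tested genes 7.01% fell and 7.54% rose in Foxj3-ES, and 6.5% fell and 5.31% rose in Zbtb18-ES. Each of the other marker lists of 8 genes stayed far lower. Fibroblast markers summed to 155 to 174, 155 to 237 and 68.6 to 102 in the same order, trophoblast markers to 264 to 420, 227 to 280 and 140 to 261, and neural progenitor markers to 57.8 to 110, 26.1 to 49.7 and 30.4 to 36.9. Primitive endoderm markers summed to 27.0 to 28.2, 14.6 to 22.7 and 13.4 to 20.7, and surface epithelium markers to 20.5 to 34.7, 13.4 to 24.0 and 27.3 to 51.7. Of the 8 fibroblast genes 1, Lum, was listed at 0 in every library. Thy1 stood at 51.8 to 207, Pdgfrb at 11.1 to 28.6 and Col1a1 at 2.87 to 16.4 over the 9 libraries. The part of other cells in the Klf values was not tested. In bulk RNA, fewer cells that express a gene and less RNA per cell cannot be told apart.

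Klf4, which encodes a core factor of naive pluripotency and of reprogramming, lies at chr4:55527143-55532466 on the minus strand of GRCm38 (mm10, GENCODE M21; ENSMUSG00000003032.8). Its UQRPKM was 860, 940 and 936 in the controls, 209, 211 and 252 in Foxj3-ES cells, and 266, 349 and 295 in Zbtb18-ES cells. No library of a line reached the lowest control, and the Foxj3-ES libraries all lay below those of Zbtb18-ES. The means fell from 912 ± 45.0 (SD, n = 3) to 224 ± 24.2 (SD, n = 3) in Foxj3-ES, 4.07-fold lower, and to 303 ± 42.6 (SD, n = 3) in Zbtb18-ES, 3.01-fold lower. The log2 fold changes were -2.02 (standard error 0.14, adjusted p = 0.000125 from limma) and -1.59 (standard error 0.14, adjusted p = 0.000493). Klf4 had a coefficient of variation of 4.94% among the controls, the lowest of the 10 members there.

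Klf2, which shares the pluripotency role of Klf4 in ESCs, stood at 462, 701 and 622 in the controls, 464, 574 and 522 in Foxj3-ES cells and 356, 481 and 303 in Zbtb18-ES cells. The groups overlapped in both comparisons. Its log2 fold changes were -0.18 (95% confidence interval -0.63 to 0.27, adjusted p = 0.608 from limma) in Foxj3-ES and -0.65 (-1.10 to -0.20, adjusted p = 0.0643) in Zbtb18-ES. Corrected for GC content and length, the first became 0.15 and the second -0.09. In Zbtb18-ES Klf2 passed in 4 of 14 other settings, which were equal sums (-0.81, adjusted p = 0.0211), library weights (adjusted p = 0.0354), genes typed as mRNA only (0.042) and a replicate block (0.0373). It also passed without control replicate 1 (-0.82, adjusted p = 0.0482) or Zbtb18-ES replicate 2 (-0.83, adjusted p = 0.0356).

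Klf5, needed in the mouse for the inner cell mass and the trophectoderm, stood at 846, 1888 and 1003 in the controls, 674, 583 and 823 in Foxj3-ES cells and 1033, 1159 and 1082 in Zbtb18-ES cells. The value of 1888 came from control replicate 2, the library with the largest GC shift. Foxj3-ES lay below all controls, and the difference of -0.77 (log2, standard error 0.26) missed the threshold (limma, adjusted p = 0.0758). It passed with equal sums (-1.12, adjusted p = 0.00816), with quantile normalization (-0.96, adjusted p = 0.0259) and without control replicate 1 (adjusted p = 0.0441), and without the high library it shrank to -0.42. In Zbtb18-ES it was -0.10 (95% confidence interval -0.68 to 0.48, adjusted p = 0.845), and it turned to 0.24 without control replicate 2.

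Klf6, a widely expressed activator induced by growth signals and injury in many tissues, was the one member higher in Foxj3-ES. Its UQRPKM was 78.5, 61.5 and 60.9 in the controls, 151, 109 and 104 in Foxj3-ES cells and 95.1, 73.8 and 106 in Zbtb18-ES cells. All Foxj3-ES libraries exceeded all controls, while 1 Zbtb18-ES library lay within the control range. In Foxj3-ES Klf6 rose by 0.84 on the log2 scale (standard error 0.21, adjusted p = 0.0264 from limma). The call ended when libraries were given equal sums (0.50, adjusted p = 0.12), a scaling that moved the median of all tested genes to -0.35 in Foxj3-ES cells and -0.16 in Zbtb18-ES cells. It also ended without control replicate 2 (adjusted p = 0.0569), control replicate 3 (0.0871) or Foxj3-ES replicate 1 (0.0907). In Zbtb18-ES the log2 fold change was 0.44 (95% confidence interval -0.03 to 0.91, adjusted p = 0.204). Klf7, the closest relative of Klf6 and known for a role in neuron differentiation, was the lowest member in the controls, at 26.4, 36.9 and 25.4. It stood at 16.5, 23.8 and 28.9 in Foxj3-ES cells and at 20.1, 24.9 and 22.2 in Zbtb18-ES cells (log2 differences -0.36 and -0.37, each with an adjusted p of 0.43). Exons of Klf7 overlap those of annotated genes on the opposite strand, as do exons of Klf3, and whether the counting used strand is not given in the sources used here.

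Klf3, a repressor that recruits CtBP and acts in red blood cells and fat, stood at 152, 197 and 168 in the controls, 86.9, 122 and 113 in Foxj3-ES cells and 114, 131 and 128 in Zbtb18-ES cells. Both lines lay below the lowest control. In Foxj3-ES Klf3 fell by 0.68 on the log2 scale (standard error 0.17, adjusted p = 0.0271 from limma), and the difference of -0.47 in Zbtb18-ES did not pass (adjusted p = 0.111). The call in Foxj3-ES ended without control replicate 2 (adjusted p = 0.0603) or replicate 3 (0.0737) and without Foxj3-ES replicate 1 (0.0874) or replicate 3 (0.0506). In Zbtb18-ES it passed in 1 of 23 alternatives, the scaling to equal sums (-0.62, adjusted p = 0.0368).

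Klf13, a Sin3-binding factor with known roles in lymphocytes and in the heart, had the lowest fitted log2 fold change of the 10 members in both lines, by less than its standard error from that of Klf4. The gene lies at chr7:63886351-63938915 on the minus strand (ENSMUSG00000052040.10). Its UQRPKM was 78.1, 125 and 89.6 in the controls, 14.8, 25.1 and 20.6 in Foxj3-ES cells, and 19.3, 44.1 and 32.4 in Zbtb18-ES cells. The highest value in either line, 44.1, was below the lowest control. The means went from 97.4 ± 24.2 (SD, n = 3) to 20.2 ± 5.17 (SD, n = 3), 4.83-fold lower, and to 31.9 ± 12.4 (SD, n = 3), 3.05-fold lower. The log2 fold changes were -2.22 (standard error 0.33, adjusted p = 0.00314 from limma) and -1.63 (standard error 0.33, adjusted p = 0.0144). Klf13 and Klf4 were the members that passed in both lines under all 14 other settings and with each of the 9 libraries left out. Over these 23 alternatives the log2 fold change of Klf4 ranged from -2.37 to -1.89 in Foxj3-ES and from -1.75 to -1.42 in Zbtb18-ES. That of Klf13 ranged from -2.56 to -1.92 and from -1.89 to -1.27.

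Klf10, first known as a TGFβ-inducible early gene, fell modestly in both lines. It stood at 543, 516 and 489 in the controls, 404, 301 and 346 in Foxj3-ES cells and 385, 323 and 370 in Zbtb18-ES cells. The controls were all higher than every library of the lines. The log2 fold changes were -0.57 (standard error 0.14, adjusted p = 0.0255 from limma) and -0.52 (standard error 0.14, adjusted p = 0.0394). The call in Foxj3-ES ended without control replicate 1 (adjusted p = 0.0888) or 3 (0.0597) and without Foxj3-ES replicate 2 (0.0816) or 3 (0.0635). That in Zbtb18-ES was kept in 2 of the 9 fits with a library left out, those without Foxj3-ES replicate 1 or 2, and its adjusted p rose to 0.118 without control replicate 1.

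Klf9, a target of glucocorticoid and thyroid hormone receptors, stood at 603, 491 and 636 in the controls, 402, 476 and 495 in Foxj3-ES cells and 346, 414 and 374 in Zbtb18-ES cells. The Zbtb18-ES libraries lay below all controls, and 1 Foxj3-ES library overlapped them. In Zbtb18-ES Klf9 fell by 0.60 on the log2 scale (standard error 0.15, adjusted p = 0.0263 from limma), and the difference of -0.33 in Foxj3-ES did not pass (adjusted p = 0.161). The latter passed with equal sums (-0.68, adjusted p = 0.0151) and with library weights (-0.41, adjusted p = 0.0338). The call in Zbtb18-ES ended without control replicate 1 (adjusted p = 0.0839) or 3 (0.0936) and without Zbtb18-ES replicate 1 (0.0853) or 3 (0.0774). Klf16, related to Klf9 and Klf13, stood at 132, 212 and 152 in the controls, 77.9, 140 and 150 in Foxj3-ES cells and 96.9, 67.4 and 86.4 in Zbtb18-ES cells. Its Zbtb18-ES libraries lay below the controls, whose highest value again came from replicate 2. In Zbtb18-ES Klf16 fell by 0.96 on the log2 scale (standard error 0.28, adjusted p = 0.0483), close to the threshold. This call was kept in 1 of the 9 fits with a library left out, the one without Foxj3-ES replicate 1, and without control replicate 2 the value was -0.77 (adjusted p = 0.136). With a correction for GC content and length it was -0.41 (adjusted p = 0.24). The GC content of the Klf16 transcript was 60.4%, the second highest of the members after Klf2 at 61.6%. In Foxj3-ES the log2 fold change of Klf16 was -0.46 (adjusted p = 0.302).

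**Figure D2:**
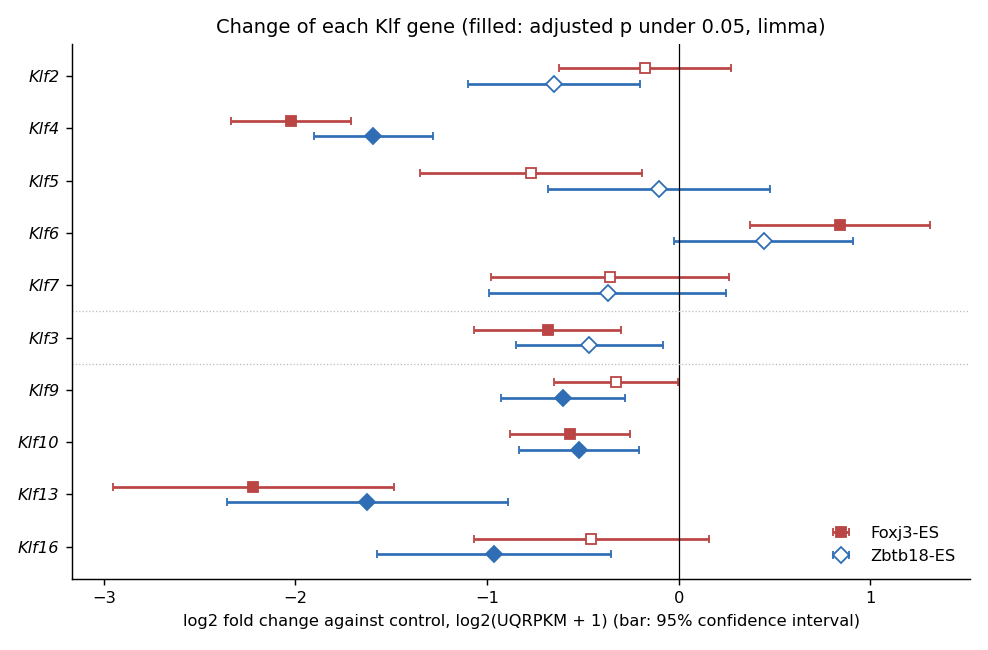
Log2 fold change against control of each Klf gene in Foxj3-ES (squares) and Zbtb18-ES (diamonds) on the log2(UQRPKM + 1) scale, with 95% confidence intervals from limma, filled where the adjusted p is under 0.05. Dotted lines separate the activator group (above), Klf3 and the Sin3-binding group (below). Klf4 and Klf13 lie near or below -1.6 in both lines, and the filled symbol of Klf6 at 0.84 is the one to the right of 0.

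Between the lines, no member passed the test (0 of 10, limma), beside 0.687% of all genes tested (0.328% higher in Zbtb18-ES and 0.359% lower). At an unadjusted p under 0.05 there were 3 of 10, where 16.2% of tested genes lay, and each of the 23 alternative fits with limma also gave 0. Klf4 was higher in Zbtb18-ES than in Foxj3-ES by 0.43 on the log2 scale (95% confidence interval 0.12 to 0.74, adjusted p = 0.177) and Klf5 by 0.67 (0.09 to 1.25, adjusted p = 0.247), and in both the libraries did not overlap, as in 9.29% of tested genes in that direction and 12.1% in the other. Klf2 was lower by 0.47 (interval of the difference -0.92 to -0.02, adjusted p = 0.283). The interval for Klf13 was -0.14 to 1.33 and that for Klf6 -0.87 to 0.07. Intervals of this width do not show the lines to be alike in these members.

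The order of levels within the family differed between control and the lines in the place of Klf4. By mean UQRPKM, which is per length, the order in the controls was Klf5 (1246 ± 562, SD, n = 3), Klf4 (912), Klf2 (595), Klf9 (577), Klf10 (516), Klf3 (172), Klf16 (165), Klf13 (97.4), Klf6 (66.9) and Klf7 (29.6). Neighbours whose libraries overlapped were Klf5 and Klf4, Klf2 and Klf9, Klf9 and Klf10, Klf3 and Klf16, and Klf13 and Klf6. Klf4 moved from place 2 in the controls to place 5 in both lines, behind Klf5, Klf2, Klf9 and Klf10, although in Zbtb18-ES its libraries overlapped those of Klf2, Klf9 and Klf10. Klf13 moved from place 8 to place 10 in Foxj3-ES and place 9 in Zbtb18-ES, where it overlapped Klf7 in each. In Foxj3-ES Klf16 (123), Klf6 (122) and Klf3 (107) could not be told apart in order, and in Zbtb18-ES Klf6 (91.8) and Klf16 (83.6) could not. The summed UQRPKM of the 10 members was 4376 ± 713 (SD, n = 3) in the controls, 2641 ± 189 (SD, n = 3) in Foxj3-ES cells and 2866 ± 178 (SD, n = 3) in Zbtb18-ES cells. Klf4 made up 21.1% of it in the controls, 8.47% in Foxj3-ES cells and 10.5% in Zbtb18-ES cells. The share of Klf5 was 27.6%, 26.2% and 38.1%. Its control libraries spread widely, at 22.4%, 36.5% (replicate 2) and 24.0%, and overlapped the 22.7% to 28.8% of Foxj3-ES. In Zbtb18-ES the share was 37.8% to 38.7%.

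Ratios of 2 members within a library do not depend on how the library was scaled. A shift with GC content, as in control replicate 2 and between the controls and Zbtb18-ES, can still alter them. The members differ in it, for example 47.5% in Klf9, 55.5% in Klf13 and 61.6% in Klf2. Klf4 to Klf2 was 1.86, 1.34 and 1.51 in the controls, 0.450, 0.368 and 0.483 in Foxj3-ES cells and 0.746, 0.727 and 0.973 in Zbtb18-ES cells. Thus Klf4 was above Klf2 in each control library and below it in each library of the lines. Klf4 to Klf5 was 1.02, 0.498 and 0.933 in the controls, against 0.306 to 0.362 in Foxj3-ES cells and 0.257 to 0.301 in Zbtb18-ES cells. For both ratios the two-sided exact permutation test gave p = 0.1 in each line, the smallest that 3 libraries against 3 allow. Klf13 to Klf9 was 0.130, 0.254 and 0.141 in the controls, 0.0368 to 0.0528 in Foxj3-ES cells and 0.0559 to 0.107 in Zbtb18-ES cells, again without overlap. Klf13 to Klf16 was 0.592, 0.586 and 0.590 in the controls and 0.137 to 0.190 in Foxj3-ES. In Zbtb18-ES that ratio spread from 0.200 to 0.655 and overlapped the controls (exact permutation p = 0.4). Klf5 to Klf2 was 1.61 to 2.69 in the controls and 1.01 to 1.58 in Foxj3-ES, which lay below, and 2.41 to 3.57 in Zbtb18-ES, which overlapped the controls (exact permutation p = 0.2). Klf6 to Klf7 went from 2.35 ± 0.66 (SD, n = 3) in the controls to 5.79 ± 2.98 (SD, n = 3) in Foxj3-ES without overlap, while its mean of 4.16 in Zbtb18-ES came with an overlap. Klf9 to Klf10 overlapped in all groups, with means of 1.12, 1.34 and 1.06. Set against Pou5f1, which encodes the pluripotency factor Oct4, Klf4 was at 0.0667 ± 0.0038 (SD, n = 3) in the controls, 0.0125 ± 0.0011 (SD, n = 3) in Foxj3-ES cells and 0.0165 ± 0.0036 (SD, n = 3) in Zbtb18-ES cells. Pou5f1 itself had log2 fold changes of 0.39 (adjusted p = 0.144 from limma) and 0.44 (adjusted p = 0.116).

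**Figure D3:**
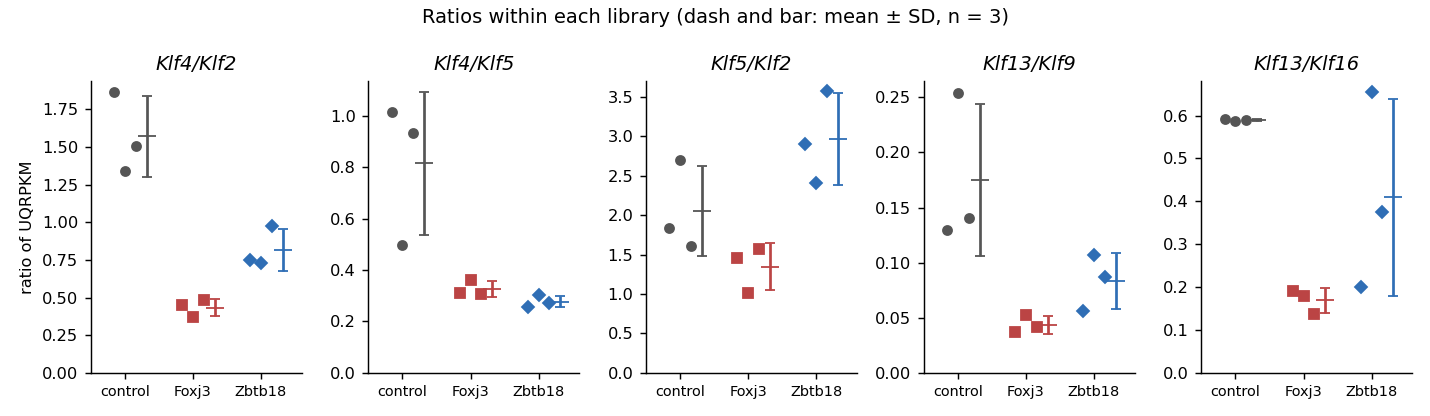
Ratio of the UQRPKM of 2 Klf genes within each library (linear axes from 0) in control, Foxj3-ES and Zbtb18-ES, with the mean ± SD of 3 libraries to the right of the points. Klf4 to Klf2 lies at 1.34 or above in the controls and at 0.973 or below in both lines, and Klf13 to Klf16 lies within 0.586 to 0.592 in the controls.

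Of 8 other Klf genes, 7 were in the table and 6 were tested. Klf17, expressed in mouse oocytes and germ cells, fell in Zbtb18-ES, from 20.3, 20.3 and 16.7 in the controls to 4.17, 3.80 and 3.40, which is -2.06 on the log2 scale (standard error 0.42; limma, adjusted p = 0.0143). In Foxj3-ES it stood at 8.90, 7.95 and 25.2 (adjusted p = 0.381). The others did not pass in either line. In Foxj3-ES that is 0 of 6 at an adjusted p under 0.05, where 14.6% of tested genes passed. At an unadjusted p under 0.05 there were 2 of 6 in Foxj3-ES, where 29.8% of tested genes lay. In Zbtb18-ES 1 of 6 passed, where 11.8% of tested genes did. The median log2 fold change of the 6 was -0.58 in Foxj3-ES and 0.12 in Zbtb18-ES. Klf8, like Klf3 a CtBP-binding repressor, stood at 63.9 to 69.8 in the controls and 41.6 to 54.9 in Foxj3-ES (adjusted p = 0.0851), and its log2 difference in Zbtb18-ES was -0.15 (adjusted p = 0.634). Klf11, the closest relative of Klf10, stood at 107 to 140 in the controls, 71.8 to 105 in Foxj3-ES (adjusted p = 0.0994) and 67.6 to 91.7 in Zbtb18-ES (adjusted p = 0.0565). Klf12 and Klf15 had differences of the other sign in Zbtb18-ES. Klf12 stood at 10.7 to 14.1 in the controls and 16.2 to 19.4 in Zbtb18-ES (0.51, adjusted p = 0.469), and Klf15 at 70.1 to 97.4 and 89.4 to 153 (0.58, adjusted p = 0.163). Of the Sp factors, zinc finger proteins that bind the same kind of GC box, 1 of 8 tested fell in each line. This was Sp2, at 172 to 195 in the controls, 84.6 to 129 in Foxj3-ES (log2 fold change -0.74, adjusted p = 0.0335) and 81.4 to 111 in Zbtb18-ES (-0.86, adjusted p = 0.0216). Sp2 passed in 4 of 9 fits with a library left out for Foxj3-ES and in 5 of 9 for Zbtb18-ES. The median of the Sp factors was -0.18 and -0.27.

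Of 15 genes for Klf partners and for enzymes that modify Klf proteins, 3 fell and 1 rose in Foxj3-ES, and 3 fell in Zbtb18-ES (median log2 fold change -0.26 and -0.16). Over all tested genes 7.01% fell and 7.54% rose in Foxj3-ES, and 6.5% fell and 5.31% rose in Zbtb18-ES. Ctbp1, the co-repressor that Klf3 binds, fell in both, with log2 fold changes of -0.64 (adjusted p = 0.0307 from limma) and -0.72 (adjusted p = 0.0236), each kept in 5 of 9 fits with a library left out. Wdr5, a subunit of histone H3K4 methyltransferase complexes, fell by 0.57 on the log2 scale in both lines (adjusted p = 0.0122 and 0.0161). Sin3b, a scaffold of the Sin3 co-repressor, stood at 220 to 324 in the controls and 439 to 482 in Foxj3-ES, a rise of 0.81 (adjusted p = 0.0103). The third gene that fell was the acetyltransferase gene Ep300 in Foxj3-ES (-0.48, adjusted p = 0.048), a call kept in 0 of 9 fits with a library left out, and Hdac1, a histone deacetylase gene, in Zbtb18-ES (-1.01, adjusted p = 0.0375), kept in 2 of 9.

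Of 12 genes of the LIF and Stat3 pathway, which holds the receptor chain, kinase and factor above Klf4 as well as other targets of Stat3, 4 fell in Foxj3-ES (Gbx2, Il6st, Pim3 and Socs3) and 6 in Zbtb18-ES (Gbx2, Junb, Pim1, Pim3, Socs3 and Tfcp2l1). Their medians were -0.48 and -0.79. Socs3, the feedback inhibitor that Stat3 induces, had a UQRPKM of 918 to 1194 in the controls, 295 to 415 in Foxj3-ES cells and 419 to 449 in Zbtb18-ES cells, and changed by -1.54 (limma, adjusted p = 0.000653) and -1.26 (adjusted p = 0.00219) on the log2 scale. Gbx2, another Stat3 target, stood at 184 to 235, 23.2 to 38.3 and 23.2 to 111 in the same order (-2.64, adjusted p = 0.00584, and -1.97, adjusted p = 0.0224), and the second call was kept in 5 of 9 fits with a library left out. Of the genes above Klf4, Il6st, which encodes the receptor chain gp130, fell by 0.75 in Foxj3-ES (adjusted p = 0.00873) and had a difference of -0.23 in Zbtb18-ES (adjusted p = 0.33). Stat3 itself had differences of -0.38 (adjusted p = 0.0912) and -0.45 (adjusted p = 0.0571), and neither Lifr nor Jak1 passed in either line. Of 12 partners of Klf4 in naive pluripotency, 6 fell in each line (medians -0.76 and -0.68), beside 7.01% and 6.5% of all tested genes. Gbx2 and Tfcp2l1 stand in both lists. Each was counted in both among the genes that fell in Zbtb18-ES, and Gbx2 also in Foxj3-ES, so these counts are not separate. Nanog, which holds ESCs in the undifferentiated state, went from 1965 to 2591 in the controls to 683 to 1005 in Foxj3-ES (-1.50, adjusted p = 0.00117) and 1062 to 1345 in Zbtb18-ES (-0.93, adjusted p = 0.011). Sall4, a zinc finger factor of the same network, had log2 fold changes of -1.23 and -1.30 (adjusted p = 0.0157 in both), each kept in 8 of 9 such fits. In these fits the changes shrank to as little as -0.86 and -0.93. The controls of Sall4 stood at 380, 856 and 410, with the highest value from replicate 2. Prdm14 had -1.08 in Foxj3-ES (limma, adjusted p = 0.00639) and -0.67 in Zbtb18-ES (adjusted p = 0.0481), the second kept in 2 of 9.

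Of 15 tested genes known as Klf targets in one tissue or another, 5 fell and 1 rose in Foxj3-ES, and 4 fell and 1 rose in Zbtb18-ES (medians -0.47 and -0.45). Over all tested genes 7.01% fell and 7.54% rose in Foxj3-ES, and 6.5% fell and 5.31% rose in Zbtb18-ES. The target gene that rose was Tagln, a smooth muscle actin-binding protein gene, from 7.07 to 20.4 in the controls to 116 to 206 in Foxj3-ES (log2 fold change 3.60, adjusted p = 0.00118 from limma) and 35.0 to 91.4 in Zbtb18-ES (2.05, adjusted p = 0.015). Ccnd1, the gene for cyclin D1, fell by 0.82 (adjusted p = 0.00727) and 1.31 (adjusted p = 0.00144). Trp53, which encodes p53, fell by 0.96 (adjusted p = 0.0127) and 1.08 (adjusted p = 0.0108). Ccne1 had log2 fold changes of -0.67 in Foxj3-ES (limma, adjusted p = 0.0191) and -0.99 in Zbtb18-ES (adjusted p = 0.00522). Nanog was also among those that fell in each line, and Esrrb in Foxj3-ES (-0.98, adjusted p = 0.018). Cdkn1a, a cell cycle inhibitor gene, had differences of -0.19 (adjusted p = 0.719) and -0.14 (adjusted p = 0.812). The list mixes targets that Klf factors activate and repress, and whether a Klf factor acted on any of them here was not tested.

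Genes whose values followed a member most closely over the 9 libraries were found among 11833 genes by Pearson's r of log2 values. Since the groups differ, r takes in the differences between group means. For Klf4 they were Spred1 (r = 0.992), Tead1 (0.987) and H1fx (0.987). Spred1, an inhibitor of Ras and Erk signalling, went from 151 to 167 in the controls to 81.2 to 85.8 in Foxj3-ES cells and 90.4 to 98.3 in Zbtb18-ES cells. For Klf13 they were Phf21b (0.995), Frmd8 (0.994) and Itpk1 (0.989), and Itpk1, an inositol phosphate kinase gene, went from 999 to 1109 in the controls to 515 to 565 and 504 to 777. For Klf6, the member that rose, Arl14ep and Ero1l were among the closest (0.975 for both). Zfhx2, Trim35 and Zcchc24 came closest to Klf3, with r from 0.990 to 0.994.

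**Figure D4:**
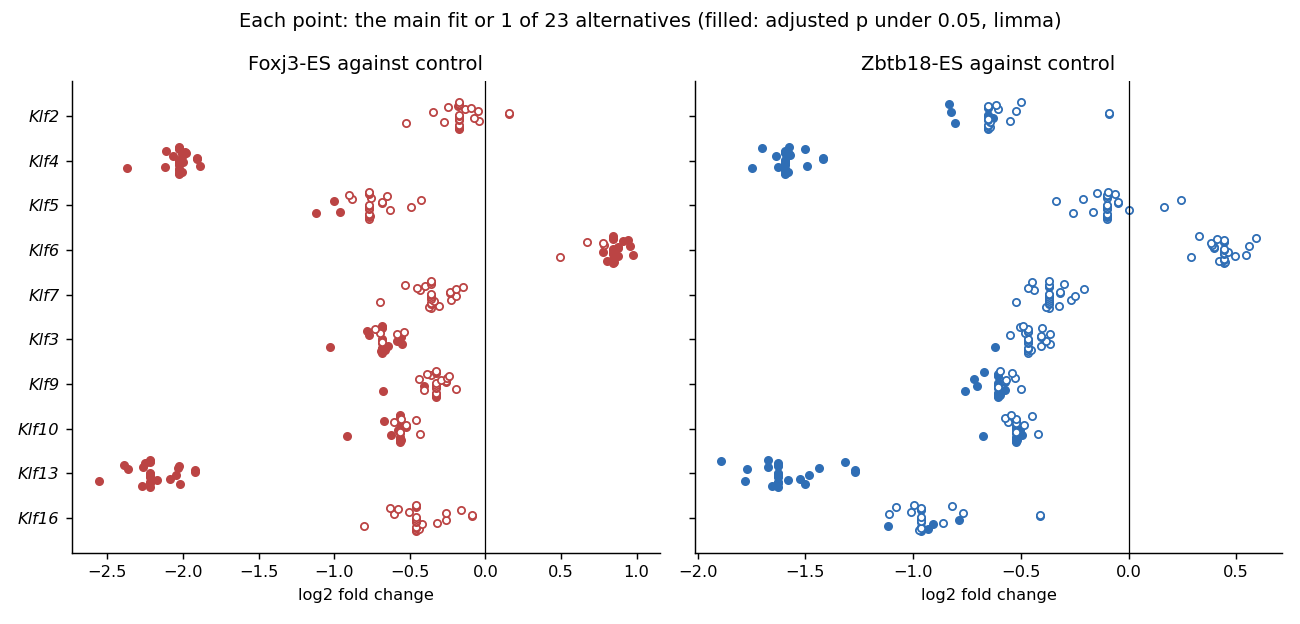
Log2 fold change of each Klf gene against control in Foxj3-ES (left) and Zbtb18-ES (right), 1 point for each of 24 fits (the one reported and 23 alternatives), filled where the adjusted p from limma is under 0.05. Klf4 and Klf13 are filled throughout in both lines, Klf5 in Zbtb18-ES falls on both sides of 0, and Klf16 in Zbtb18-ES moves to -0.41 once GC content and length are corrected for.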

How the data were processed

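Total RNA of 9 libraries was sequenced on an Ion Proton, and the authors deposited upper-quartile RPKM (UQRPKM) per gene. The submitters' processing notes name mm10 and DESeq without a version, while aligner, counting step and annotation were not given in the sources used here. Here log2(UQRPKM + 1) was fitted with limma 3.58.1 (R 4.3.3, with a trend) on 22268 genes with at least 1 in at least 3 libraries, all 9 libraries in 1 fit. The adjusted p is Benjamini-Hochberg over these genes. The members and lists were chosen with earlier results of these data known. Named genes are all members and, per list and line, up to 4 of the genes with the largest change among those that passed, with Klf8, Klf11, Klf12, Klf15, Pou5f1, Stat3, Lifr, Jak1, Pim1, Cdkn1a and markers added after their values were seen. Depth was estimated from the smallest steps of values and GENCODE M21 lengths, which are also the source of coordinates and GC content. Alternatives covered the pseudocount, filter, scaling, spread, weights, replicate block, GC correction and each library left out. The test was tried on simulated data. Python 3.11.15 drew the plots. Columns could all be assigned to libraries. A gene that the rule for genes most like Klf6 selects is not reported here.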

Additional observations from a re-analysis of the deposited data

Results flagged for a closer look

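Thy1, a surface protein gene in the list of fibroblast markers, differed between the lines in its response. Its UQRPKM was 137, 130 and 136 in the controls, 126, 126 and 207 in Foxj3-ES cells and 51.8, 55.2 and 77.5 in Zbtb18-ES cells, and the difference of Zbtb18-ES minus Foxj3-ES was -1.28 on the log2 scale (adjusted p = 0.0372 from limma). Its part in the Klf values was not tested.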

How the results depend on the processing

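The counts of members that passed in Foxj3-ES (5) and Zbtb18-ES (5) moved with the settings, while Klf4 and Klf13 passed in both lines under all of them. With a 2-fold limit added, 2 passed in each line. Without a trend in the spread the counts were 3 and 2, and with libraries centred on the median mRNA 2 passed in Zbtb18-ES. With equal sums 6 passed in Foxj3-ES, all of them lower. In Zbtb18-ES 7 passed with that scaling, where Klf2 and Klf3 were added. Quantile normalization and library weights each gave 6 in Foxj3-ES. Of the 14 settings, the calls in Foxj3-ES were kept in 12 for Klf3, 12 for Klf10 and 13 for Klf6, and those in Zbtb18-ES in 12 for Klf10, 11 for Klf9 and 7 for Klf16. With a library left out, 2 to 5 members passed in each line. No pairing by replicate number was seen. Same-numbered libraries had correlations of -0.05 to 0.08 in their deviations, and differently numbered ones of -0.09 to 0.09. Such values cannot decide whether libraries of the same number were made together. With a replicate block 5 members passed in each line and 0 between the lines, with Klf2 added (adjusted p = 0.0373) and Klf16 lost (adjusted p = 0.0606) in Zbtb18-ES. A replicate block with the GC and length correction left 3 in Zbtb18-ES. Klf2 in Foxj3-ES turned to 0.15 with the GC correction, with or without the block. Klf5 in Zbtb18-ES turned to 0.16 with library weights, 0.000673 with centring and, with a library left out, ranged from -0.34 to 0.24 (without control replicate 2). Between the lines Klf7 turned to 0.17 with equal sums and, with a library left out, ranged from -0.22 to 0.16, and Klf10 ranged from -0.0601 to 0.15. The causes were not tested. Klf13 rested on as few as 84 estimated reads.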
